A study of Sus scrofa with 12 samples.

Results

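Probe set 15342515 is a row of a porcine Affymetrix expression array for which no gene is listed. It was chosen by its number, 1 row of 27558, because its signal was high on every control array and low on every paced array. The other rows whose 6 control and 6 paced arrays did not overlap, with a gap of at least 0.5 on the log2 scale, are its context. Here the gap is the lowest value of the higher treatment minus the highest value of the lower treatment, over both regions. The rule gave 3 rows in all, 0.0109% of the table, counting probe set 15342515 itself: 2 were lower in paced pigs (0.00726%) and 1 was higher (0.00363%). Because the rule used the difference between paced and control arrays, that difference is given for these rows as a description and carries no test.

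The study enrolled 12 female pigs aged 13 months and profiled RNA of the left ventricle. Paced pigs had complete atrioventricular block made with an ablation catheter and then a pacemaker in VDD mode. Control pigs were sham animals of the same age, and the labels place a lead on the right ventricular septum and another on the right atrial appendage in all pigs. All pigs were killed after 6 months, and the free wall and the septum of the left ventricle were sampled. With 3 arrays for each region and treatment there were 12 arrays in 4 groups. The design text enrolled 6 pigs per treatment; no label ties an array to an animal, so the same pigs may stand behind both regions. Free wall and septum arrays may then be paired, which the main tests below do not model. The 6 arrays of a treatment may also come from fewer than 6 pigs. As the animal behind each array is not known, the spread within a group may be partly technical. The p-values measure only the spread between these arrays.

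In VDD mode the device senses the atrium and paces the ventricle. When a ventricle is driven from a lead on the right side of the septum, activation spreads through working muscle instead of the specialised conduction system, so the septum is activated early and the free wall late. A probe set is a group of short oligonucleotides whose signals are summarised into 1 value. Whole-transcript arrays also carry probe sets for predicted or non-coding transcripts, and for many of these no gene name was assigned. The oligonucleotides of these rows were not analysed here, so their targets are not stated.

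Probe set 15342515 read 6.65, 6.57 and 6.73 in the 3 free wall control arrays and 6.73, 6.88 and 6.68 in the 3 septum control arrays, as log2 signal. It read 3.65, 4.57 and 2.70 in the free wall paced arrays and 3.12, 3.22 and 3.01 in the septum paced arrays. All 6 control values lay within 0.31 of each other, all 6 paced values spanned 1.87, and the highest paced value stood 2.0 below the lowest control value. Group means were 6.65 ± 0.08 (SD, n = 3) in free wall control, 3.64 ± 0.94 in free wall paced, 6.76 ± 0.10 in septum control and 3.12 ± 0.11 in septum paced.

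**Figure D1:**
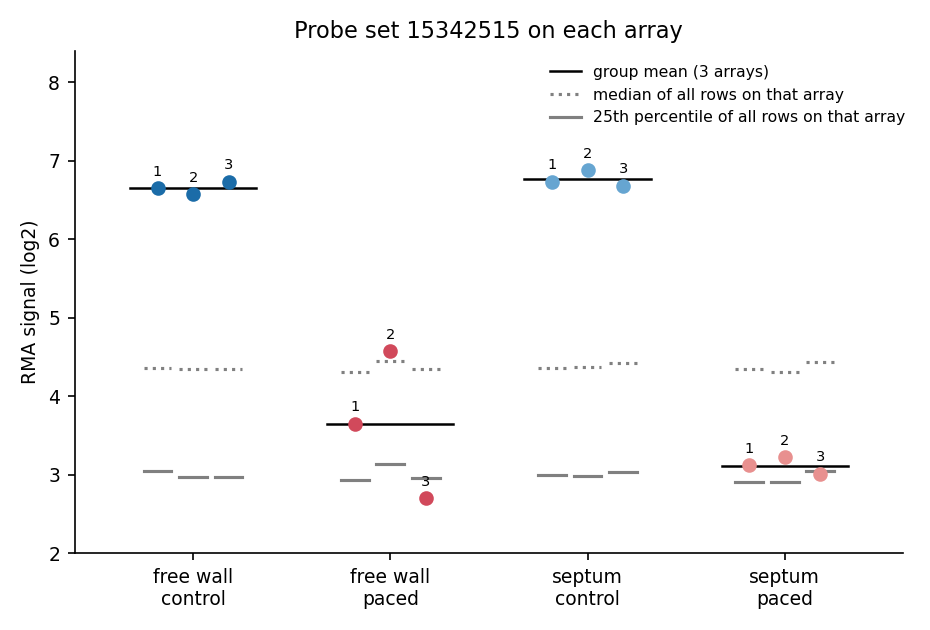
Log2 RMA signal of probe set 15342515 on each array (points, numbered as in the labels) in the 4 groups, with the group mean and, for each array, the median and the 25th percentile of all rows. The control arrays sit between 6.57 and 6.88 and the paced arrays between 2.70 and 4.57, with free wall paced array 2 the highest of the paced.

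Paced minus control was -3.01 in the free wall, an 8.06-fold lower mean, and -3.65 in the septum, a 12.5-fold lower mean. No other row of the table had so low a difference in either region. The next lowest was -2.33 in the free wall and -2.45 in the septum, each at another row (15180593 and 15332985). Over all rows the median difference was -0.003 in the free wall and -0.007 in the septum. Without free wall paced array 2 the free wall difference was -3.48, and without array 3 of that group it was -2.54.

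On the control arrays, 82.5% to 85.4% of all rows read lower than this probe set. On the septum paced arrays 24.2% to 30.2% of rows read lower, and on the free wall paced arrays 37.7%, 52.5% and 20.8%. These shares place the signal within an array and do not measure the amount of RNA, since different probe sets bind with different strength. The 25th percentile of the arrays lay between 2.91 and 3.13, close to the septum paced values. No detection call came with the values, so the paced signal was not separated from background here, and where it is background the folds above are lower bounds.

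The paced free wall stood out by its spread. The SD of 0.94 there was larger than that of 99.0% of the 20666 rows bright enough to be tested, which had a median SD of 0.22 in that group. In the other groups the SD of probe set 15342515 was unremarkable, larger than that of 22.4% of rows in free wall control, 30.9% in septum control and 24.6% in septum paced. Free wall paced arrays 2 and 3, which read 4.57 and 2.70, held 96.9% of the sum of squares of this row around its group means. Array 2 of that group also stood apart over all rows. Its score on the leading principal component was -45.3, with the 11 others from -19.2 to 22.3, and limma gave it a weight of 0.24 when the others had 0.63 to 1.68. Without it the gap between treatments was 2.92; the part of its quality in its high reading was not tested.

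The rule did not use the difference between regions directly, but its gap was taken over the arrays of both regions. A wide region difference within a treatment tends to make that gap smaller, so the rule favoured rows with small region differences. For rows past the gap threshold, a region test or a comparison of pacing differences that does not pass is therefore partly built in. The region difference of the chosen probe set was tested with limma over all 20666 rows. In control pigs, septum minus free wall was 0.11 (SE 0.33, 95% confidence interval -0.61 to 0.84, limma adjusted p = 0.997). The shared variance of the fit is set largely by the paced free wall, and the control groups' own SDs were 0.08 and 0.10. In paced pigs it was -0.52 (SE 0.33, interval -1.25 to 0.20, limma adjusted p = 0.836), and the 3 septum values lay inside the range of the 3 free wall values. That interval runs from a septum more than 2-fold lower to one slightly higher. The difference was -0.06 when free wall paced array 2 was left out and -0.99 when array 3 was. Neither difference passed, and 0 of all rows tested with limma passed in either comparison (0%). At an unadjusted limma p under 0.05 there were 758 of 20666 rows between the regions in control pigs and 1391 in paced pigs. If no row differed, a share of 0.05 would be expected on average. The 758 rows fall below that share and the 1391 above it.

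Septum and free wall were also compared for the size of the pacing difference. The pacing difference of the septum minus that of the free wall was -0.64 (SE 0.47, interval -1.66 to 0.39, limma adjusted p = 0.999), which did not pass. It was -0.17 when free wall paced array 2 was left out and -1.11 when array 3 was. Of all rows, 0 passed this limma test (0%). At an unadjusted limma p under 0.05 there were 569 of 20666, below the share of 0.05 expected on average if no row differed. The interval holds both no difference and one of more than 2-fold, so it is no evidence of equal responses.

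Few rows of the table separated the treatments at all. At 119 of 27558 rows (0.432%) the 6 control and 6 paced values were fully apart, 68 of them lower in paced (0.247%) and 51 higher (0.185%). Of the 119 rows, 70 list 1 gene symbol, 4 list several and 45 list none. The median gap of the 119 rows was 0.05, 82 had a gap under 0.1, and 13 reached 0.3. The gap of 2.0 at probe set 15342515 was 2.25 times the next largest and the only one of 1 or more. By mean difference alone, 21 rows differed by at least 1 in both regions in the same direction, 13 lower and 8 higher. At 2 or more there were 2 rows, both lower. The second of these was LOC100153110 (probe set 15292329), listed by a LOC symbol only, at -2.26 in the free wall and -2.05 in the septum. It was singled out after its values were seen. Its control arrays ranged from 1.19 to 5.11 and overlapped with the paced arrays. The row was also too dim for testing, so its paced values may be background.

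**Figure D2:**
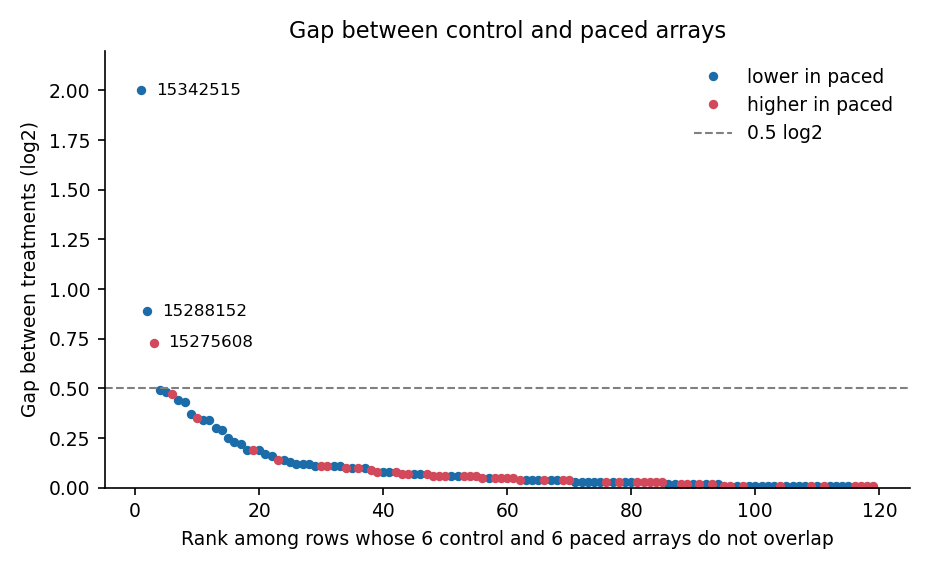
Gap between the treatments, in log2 units, for the 119 rows whose 6 control and 6 paced arrays did not overlap, in order of size, with the direction by colour and the 0.5 threshold as a dashed line. Probe set 15342515 stands at 2.0, the other rows past the threshold at 0.89 and 0.73, and the rest below 0.5.

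**Figure D3:**
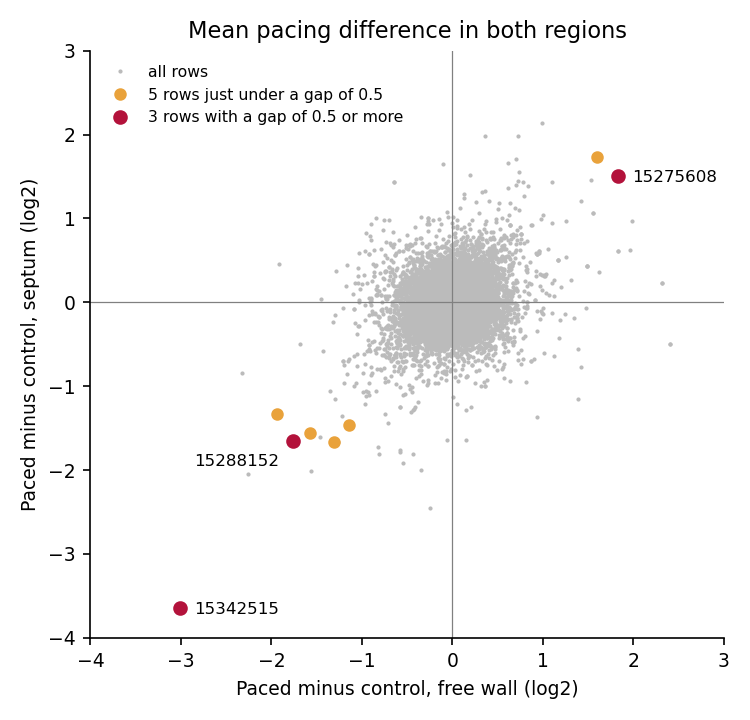
Mean paced minus control difference (log2) in the free wall and in the septum, with each row of the table as a point. Probe set 15342515 lies at -3.01 and -3.65, below all other rows on both axes.

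Both other rows past the threshold also list no gene. Probe set 15288152 was lower in paced pigs. It read 4.50, 3.38 and 3.21 in free wall control, 3.39, 3.24 and 3.51 in septum control, 2.24, 1.96 and 1.62 in free wall paced and 2.32, 1.69 and 1.16 in septum paced. Its gap was 0.89, with paced minus control at -1.76 in the free wall and -1.66 in the septum. This row is dim: its mean over the 12 arrays was 2.69, under the limit of 3.0 for testing, and its paced values lay below the 25th percentile of every array. In a limma fit with no filter, septum minus free wall was -0.32 in control (SE 0.34, adjusted p = 0.995) and -0.22 in paced pigs (SE 0.34, adjusted p = 0.967), so neither passed.

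Probe set 15275608 was higher in paced pigs. It read 4.15, 4.13 and 4.27 in free wall control, 3.93, 3.49 and 4.63 in septum control, 5.61, 6.76 and 5.66 in free wall paced and 5.63, 5.36 and 5.59 in septum paced. All paced arrays stood above all control arrays, with a gap of 0.73. Paced minus control was 1.83 in the free wall, 1.45 without free wall paced array 2, and 1.51 in the septum. Septum minus free wall was -0.17 in control (SE 0.31, limma adjusted p = 0.997) and -0.48 in paced pigs (SE 0.31, limma adjusted p = 0.836), and neither passed. The next row by number lists RPIA, an isomerase of the pentose phosphate pathway, at -0.25 and -0.27 for pacing in the free wall and septum with overlapping groups.

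The first 5 rows under the threshold had gaps from 0.49 down to 0.43. Probe set 15217667, with no gene listed, ranged from 6.81 to 7.93 in control and from 5.62 to 6.32 in paced arrays. LOC100156296 (probe set 15288146), listed by a LOC symbol only, ranged from 2.77 to 4.41 in control and from 1.90 to 2.29 in paced arrays. Its mean over the 12 arrays was 2.82, under the limit for testing. Probe set 15307846, with no gene listed, was the only one of the 5 that was higher in paced pigs, at 4.16 to 6.07 against 2.90 to 3.69. The row after it by number lists ALDH5A1, an enzyme of GABA breakdown. That row stood at -0.75 and -0.78 for pacing in the free wall and septum with a gap of 0.29. The row before it lists MRS2, at -0.19 and -0.32 with overlapping groups. XKRX (probe set 15337450), of the XK family of membrane proteins, ranged from 5.03 to 6.00 in control and from 3.14 to 4.59 in paced arrays. Probe set 15288150, which lists LOC100154757 and LOC100620469, ranged from 4.39 to 5.38 in control and from 2.42 to 3.96 in paced arrays.

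Probe sets 15288146, 15288150 and 15288152 lie within 4 successive rows of the table, and all were lower in paced pigs. The row between them, 15288148, overlapped widely. Probe sets 15288146 and 15288152 were too dim for testing, so their paced values may be background. Probe set 15288150 and the rows just after these list several loci each, so the signal there cannot be assigned to 1 locus and these rows are uncertain.

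**Figure D4:**
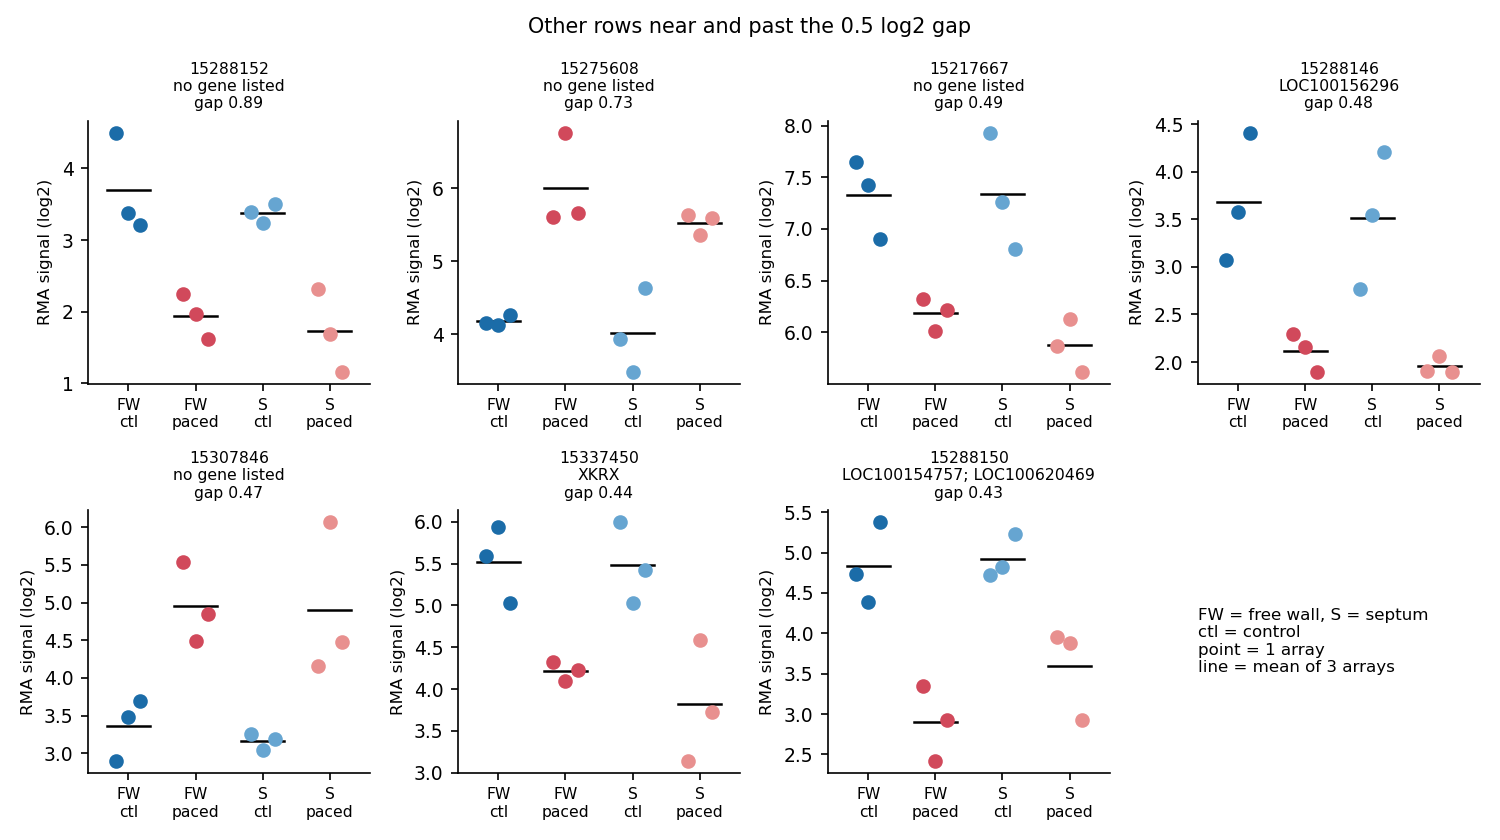
Log2 RMA signal on each array (points) with the group mean (line) for the 2 other rows past the 0.5 gap and the 5 rows just under it. Rows 15275608 and 15307846 are higher in paced arrays and the other 5 are lower; each panel has its own vertical scale.

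Probe set 15342515 lies in a run of 6444 successive rows without any listed gene, numbered 15338861 to 15351650, which closes the table and makes up 23.4% of it. Elsewhere the numbers group rows by chromosome: 99.1% of 12638 adjacent pairs of named rows placed by RefSeq (Sscrofa11.1) were on the same chromosome. The order of rows within a chromosome was not compared. The nearest named row lies 1828 rows before, so its number gives no neighbouring gene. Within the run 19 rows did not overlap between treatments (0.295%), against 100 of the other 21114 rows (0.474%). The second largest gap in the run was 0.30, at probe set 15342681. The run was as bright as the rest of the table, with a median level of 4.36 in each.

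Treatments overlapped at each of the 5 rows on either side by number: 0 of 10 were fully apart, against 0.432% of all rows, so this count says nothing particular about them. Their pacing differences were at most 0.50 in size in either region. The row after it, 15342517, read 6.06 to 6.24 in control and 5.23 to 6.16 in paced arrays, with free wall paced array 2 the low value. The row before it, 15342513, read 3.26 to 3.72 in control and 3.24 to 3.85 in paced arrays.

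**Figure D5:**
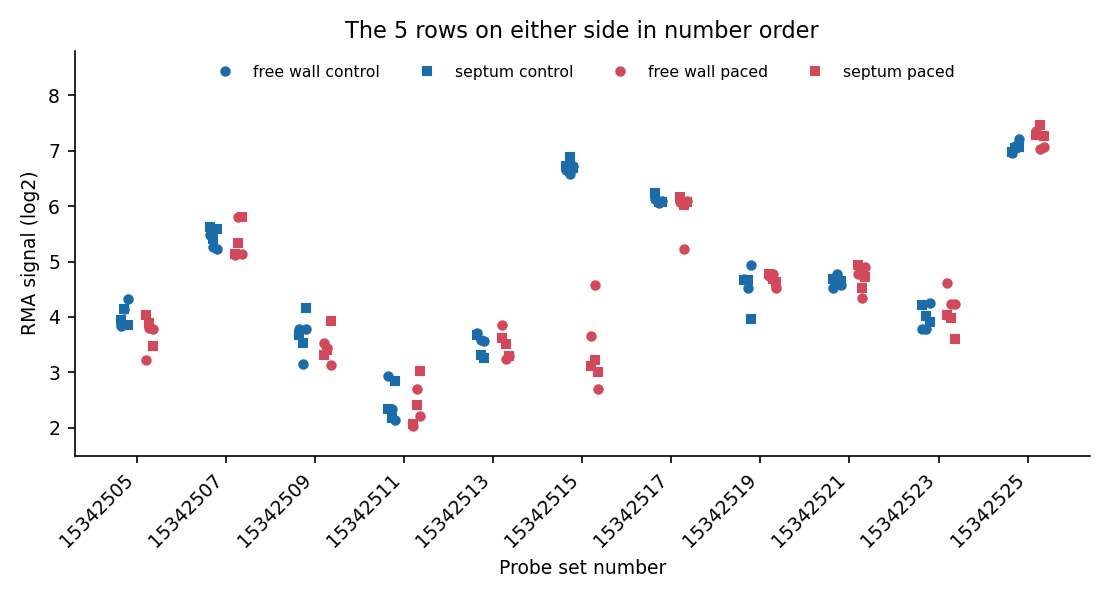
Log2 RMA signal on all 12 arrays for probe set 15342515 and the 5 rows on either side in number order, with control arrays in blue and paced arrays in red. Control and paced points overlap in each of the 10 neighbours.

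The rows most like probe set 15342515 over the 12 arrays were found by Pearson correlation among 20665 other rows, as a description. The 12 points share the same arrays and fall into the treatment groups, so the measure mostly reflects that split and not the size of a change. Probe set 15268933, with no gene listed, was highest (r = 0.947), followed by GLRX5, a mitochondrial protein of iron-sulfur cluster assembly (r = 0.914), and ADH5, which breaks down formaldehyde and S-nitrosoglutathione (r = 0.895). Next came ACSL1, which activates long-chain fatty acids, C8G, a chain of complement component C8, and SLC25A12, the mitochondrial aspartate-glutamate carrier (r = 0.893 to 0.889). Probe set 15232721 with no gene listed, the epoxide hydrolase genes EPHX1 and EPHX2, and PDZD9, which encodes a PDZ domain protein, completed the first 10 (r = 0.882 to 0.879).

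These 10 rows differed far less between treatments. Their mean paced minus control differences over the 6 and 6 arrays were between 0.19 and 1.04 in size, all lower in paced, against -3.33 at probe set 15342515. PDZD9 had the largest, at 4.10 to 5.10 in control and 3.26 to 3.76 in paced arrays. ADH5 read 7.01 to 7.25 in control and 6.65 to 6.78 in paced arrays. EPHX1 and ACSL1 overlapped between treatments, and at GLRX5 the lowest control value and the highest paced value were both 8.12.

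At the other end, the most opposite rows were probe set 15192250 with no gene listed (r = -0.918), TBC1D19, which encodes a TBC domain protein (r = -0.910), PTGFR, the receptor of prostaglandin F (r = -0.90), ARV1, a protein of lipid transport in the endoplasmic reticulum (r = -0.895), and ALG10, a glucosyltransferase of N-glycan synthesis (r = -0.884). Their mean differences were 0.32 to 1.10, higher in paced. PTGFR had the largest, at 4.56 to 5.42 in control and 5.77 to 6.86 in paced arrays.

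The labelled tissue was borne out by cardiomyocyte genes. Of 18 such markers 12 were matched to a row by symbol, with the slow myosin MYH7 at 12.40 to 12.59 and the ventricular light chain MYL2 at 12.21 to 12.53 over all arrays. The cardiomyocyte list had a median pacing difference of 0.05 in the free wall and -0.02 in the septum, and treatments were fully apart at 0 of its 12 genes, against 0.432% of all rows. Other fixed genes also overlapped between treatments: the natriuretic peptide genes NPPA (4.75 to 8.55) and NPPB (3.34 to 4.68), skeletal actin ACTA1 (9.29 to 10.23), the gap junction gene GJA1 (10.22 to 10.81) and the collagens COL1A1 (6.04 to 7.54) and COL3A1 (6.02 to 8.0). Of 9 fibroblast markers 7 were above 0 for pacing in both regions, with median differences of 0.19 and 0.33, while the list's mean was 6.98 to 8.02 on control and 7.65 to 7.98 on paced arrays. Macrophage and monocyte markers had medians of -0.33 in the free wall and 0.01 in the septum over 10 genes. Lymphocyte markers stood at 0.07 and -0.01 over 7 genes, and markers of nerve and Schwann cells at 0.003 and -0.13 over 5. Among the latter NRSN1, which encodes a membrane protein of neurons, stood at -1.47 in the free wall and -1.60 in the septum, and its treatments overlapped by 0.11 (gap -0.11). Of 7 smooth muscle and pericyte markers 5 were above 0 in both regions, with medians of 0.14 and 0.33 and list means of 6.96 to 7.34 on control and 7.27 to 7.62 on paced arrays. The lists for atrial muscle, endothelium, fat, conduction system, red cells and skeletal muscle had medians between -0.31 and 0.27, and 0 genes of any list had treatments fully apart; at the 0.432% of all rows, lists this short give no result by that count. The part of these cell types in the signal of probe set 15342515 was not tested, and fewer cells of a type and less RNA per cell cannot be told apart in whole tissue.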

How the data were processed

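Per the labels, total RNA was extracted with Trizol and labelled with biotin for an Affymetrix array. The deposited values are log2 signals; the submitters' processing notes name Affymetrix Expression Console 1.4 and RMA. This method subtracts background, equalises the arrays' distributions and summarises each probe set. No source used here names the array's genome build. The table held 27558 rows and 12 arrays. A platform annotation listed 1 symbol for 13323 rows, several for 357 and none for 13878, and 7 symbols were updated through RefSeq.

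Rows in the lowest 25% by mean were left out of tests (20666 kept). A model of the 4 groups was run in limma 3.58.1 (R 4.3.3) on all 12 arrays, two-sided, with Benjamini-Hochberg adjustment over all rows tested and a threshold of 0.05. The number of arrays limits the precision. Deviations from group means correlated between the regions' arrays of equal number at 0.32, 0.25 and 0.24 for control and at 0.09, -0.17 and -0.18 for paced pigs. Arrays of unequal number were not compared, so whether equal numbers mark the same pig was not tested. The fit was tested on simulated data with planted changes. Of 100 2-fold changes it recovered 71 between regions in control pigs, 70 in paced pigs and 42 for the difference between pacing differences. At 4-fold it recovered 96, 93 and 87, and false calls were 4, 6 and 2. A real 2-fold difference can therefore be missed, so a count of 0 does not mean that no row differs.

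The members and lists were chosen with earlier results of these data known. Named rows were the probe set, the rows past the gap, the 5 just under it, the 10 most and 5 least correlated, the same within groups (5 each), the 5 on either side by number, and 8 fixed genes, of which MYH6 was not matched. Alternatives were other filters, normalisations, weights, variance models, sample sets, blocks, gap limits and leaving out each array. Figures used matplotlib 3.10.9.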

Additional observations from a re-analysis of the deposited data

Results flagged for a closer look

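In 2 of 16 sets of 6 arrays of the same treatment, for the 8 rows around the gap threshold, 1 array stood far from the other 5. This outlier check flags about 1 in 20 sets by chance. The rows were chosen by these same values, share the arrays and pool both regions, so 2 of 16 cannot be set against that rate. Probe set 15288152 read 4.50 in free wall control array 1, where the nearest other control array read 3.51. Without that array its free wall difference was -1.36 in place of -1.76, and its gap, set by the lowest control array, was still 0.89. Probe set 15275608 read 6.76 in free wall paced array 2, the array that stood apart over the whole table, where the nearest other paced array read 5.66. Without it the free wall difference was 1.45 in place of 1.83. The gap of 0.73 is set by the lowest paced array and could not change. Probe set 15342515 was not among them: free wall paced array 2, at 4.57, lay 0.492 of the paced range above the next array, below the critical value of 0.625.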

How the results depend on the processing

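The region differences of probe set 15342515 and their difference of differences kept their direction and did not pass in each of the alternatives run (21 for each region and 20 for the difference of differences). Each pacing difference, which carries no test, kept its direction in 10. Leaving out 1 array gave 0.06 to 0.16 between regions in control pigs, -0.99 to -0.06 in paced pigs, -1.11 to -0.17 for the difference of differences, -3.48 to -2.54 for pacing in the free wall and -3.70 to -3.59 in the septum. Adjusted p-values of the region tests ran from 0.439 to 1. For the count of 3 rows past a gap of 0.5, a gap of 0.4 gave 8, rows with 1 symbol gave 0, and leaving out 1 array gave 3 to 5, and the 5 arose on leaving out array 1 of the paced free wall, of the control septum or of the paced septum. Probe set 15342515 had the largest gap in 18 of these 19 alternatives, and the other left it out by construction. This is no check of the row, which was chosen by the same contrast. Leaving out an array cannot make a gap smaller, and leaving out other rows cannot change it. Probe set 15275608 changed sign between regions in control pigs without septum control array 2 (0.10; range over leave-outs -0.47 to 0.10), and in the difference of differences with array weights (0.085) and without free wall paced array 2 (0.058; range -0.58 to 0.058). It was called in none of these, and the cause was not tested. With the replicate number as a fixed block, 1 row passed between regions in paced pigs in place of 0, and leaving out 1 array gave 0 to 7 (7 without septum paced array 2). For probe set 15342515 the block left the differences at 0.11, -0.52 and -0.64 and changed no call. The block changed no other count, and whether equal numbers mark the same pig was not tested. Arrays carry no depth, and signals near the 25th percentile may be background.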

Other observations

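With each group's mean taken off, RASD1, a Ras-like GTPase induced by glucocorticoids, followed probe set 15342515 most closely over the 12 arrays (r = 0.963), and SERP1, a protein of the endoplasmic reticulum stress response, was the named gene most opposite to it (r = -0.959). In all, 78 rows reached 0.9 in size on this measure. Free wall paced arrays 2 and 3 carry most of the spread of probe set 15342515 within groups. Without them the values were 0.50 for RASD1 and 0.027 for SERP1 over the other 10 arrays. The other rows picked as most alike, with no gene listed, then ran from -0.16 (15349019) to 0.63 (15345629). The other rows picked as most opposite, also with no gene listed, ran from -0.82 (15345859) to 0.038 (15344341). With group means taken off and all 12 arrays kept, probe set 15345859 was the most opposite row of all (r = -0.966).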
